A study of Mus musculus with 8 samples.

Results

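The 10 genes described here are the FASTK family members Fastk, Fastkd1, Fastkd2, Fastkd3, Tbrg4 and Fastkd5, together with Elac2, Trmt10c, Hsd17b10 and Ptcd1, which act in the cutting and maturation of mitochondrial RNA. They were chosen by name for their function, with no threshold on a measured value, and make up 10 of the 50599 gene records in each library. RNA was sequenced from whole hearts of 12-week-old male mice on the C57BL/6N strain, in 8 libraries of 1 animal each. The 4 wildtype animals carried Lrpprc loxP/loxP with no Cre, so the controls held the floxed allele too. The 4 Lrpprc knockout animals carried Lrpprc loxP/loxP with Cre, which removes the gene in heart and skeletal muscle only, because its loss in the whole body is lethal to the embryo. Which cells of the heart kept the gene was not measured, and a whole-heart library cannot tell fewer cells of a type from less RNA per cell. No other condition, age or treatment was compared.

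Mammalian mitochondrial DNA is transcribed as long polycistronic RNAs in which tRNAs lie between most rRNAs and mRNAs. RNase P, built from Trmt10c, Hsd17b10 and the nuclease Prorp, cuts at the 5′ end of these tRNAs, and Elac2, the long form of RNase Z, cuts at the 3′ end. The FASTK family shares a C-terminal RAP domain, and its members are needed for single steps that the tRNA rule does not cover, such as junctions without a tRNA, the stability of particular mRNAs, or the maturation of the large rRNA. Lrpprc, a pentatricopeptide repeat protein, binds the mRNAs that these enzymes release and keeps them stable and polyadenylated, which makes the heart without Lrpprc a place to ask whether the genes for the upstream steps change their level.

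Lrpprc was measured at 3607, 3946, 3424 and 3682 normalised counts in the wildtype animals (replicates 1 to 4 in order, here and throughout) and at 597.4, 504.3, 605.4 and 600.8 in the knockout animals. A normalised count is the estimated number of reads of a gene, divided by the library's size factor and corrected for transcript length. The groups stood far apart, with a log2 fold change (log2FC, knockout over wildtype) of -2.67 ± 0.10 (SE; DESeq2, adjusted p = 3.77e-153), and 15.7% of the wildtype mean remained in the knockout. Total expected counts ranged from 35218541 to 47743376 per library, and mitochondrial rRNA took 44.0% to 46.9% of them in the wildtype and 65.6% to 67.8% in the knockout. On the second principal component of 15754 genes, which held 15.9% of the variance, knockout replicate 3 lay at -68.5 while the other knockout libraries lay between 22.9 and 27.3. Values without that library are therefore given where it changes a call on one of the 10 genes or a count in the related lists. They are not given for the markers, neighbours and other genes. Markers of cardiomyocytes summed to 780742 to 902241 normalised counts in the wildtype and 388875 to 524091 in the knockout, with 4 of 6 markers lower. Most of these sums was Myh6, with a mean of 553949 in the wildtype and 302608 in the knockout. Actn2 (log2FC 0.10, DESeq2, adjusted p = 0.687) and Tnnt2 (-0.15, DESeq2, adjusted p = 0.509) did not pass the test. Markers of macrophages summed to 2083 to 2493 in the wildtype and 2645 to 5531 in the knockout, with 4 of 5 higher. Smooth muscle markers were lower for 2 of 3 and atrial markers for 2 of 4, 1 of 5 fibroblast markers was higher, and none of the endothelial, erythroid or adipocyte markers passed the test. No marker was at 0 throughout a group, and Plin1, an adipocyte marker, was at 0 in knockout replicate 3. What these differences in marker level contribute to the values below was not tested.

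Elac2 was the member that rose most, and Fastkd1 the member that fell most. Of the 10 genes, Elac2 and Trmt10c were higher in the knockout, Fastk and Fastkd1 were lower, and 6 did not pass the test. All 6 FASTK genes together counted 0 higher and 2 lower, and the 4 enzymes and helpers counted 2 higher and 0 lower. Over all 19959 genes with an adjusted p in DESeq2, 33.7% were called at a threshold of 0.05, with 18.2% of the genes tested higher and 15.5% lower, so 4 of 10 is near the background and the count by itself is no result about these genes. The median log2FC of the 10 was -0.02, and that of all genes tested was 0.01. For 5 of the 10 genes (Elac2, Trmt10c, Fastkd5, Fastk and Fastkd1) the 4 knockout values did not overlap the 4 wildtype values, where 33.0% of all genes tested did so.

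**Figure D1:**
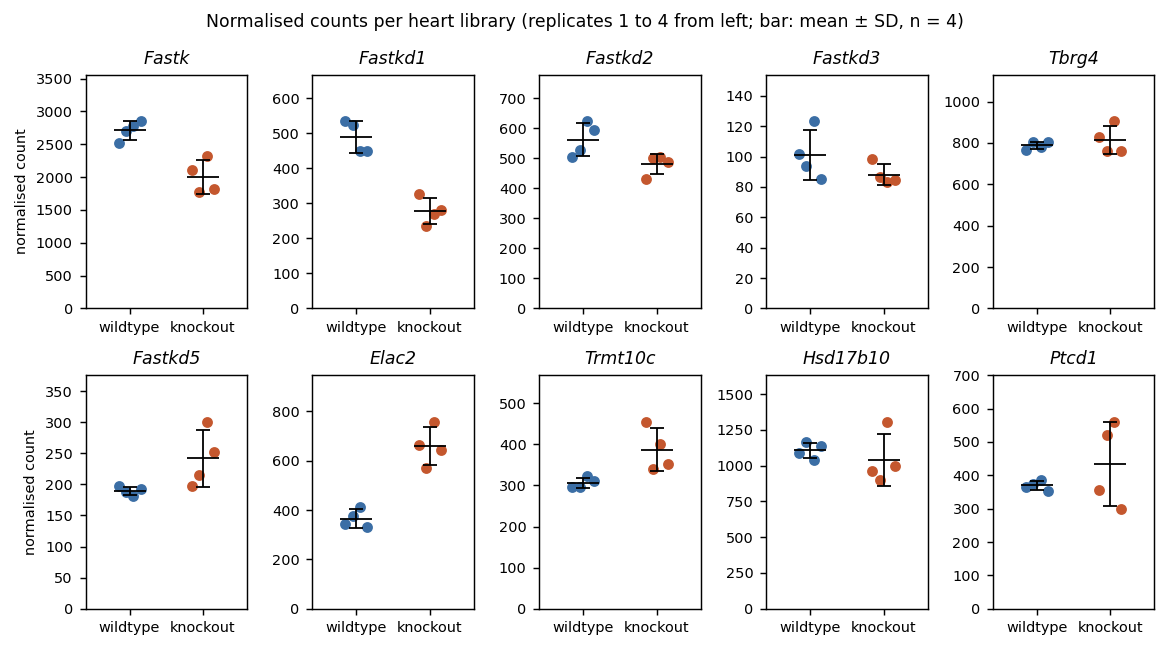
Normalised counts (vertical axes, from 0) of each gene in the 4 wildtype (blue) and 4 knockout (orange) libraries, with each point 1 library in replicate order from the left and bars for the mean and SD (n = 4). The groups lie apart in Fastk, Fastkd1, Fastkd5, Elac2 and Trmt10c, and knockout replicate 3 is the highest knockout value of Fastk, Fastkd2, Tbrg4, Fastkd5, Elac2, Hsd17b10 and Ptcd1.

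Elac2 lies at chr11:64979038-65002069 (GRCm38, plus strand). Its normalised counts were 341.9, 374.9, 414.2 and 330.3 in the wildtype replicates and 663.6, 568.9, 758.5 and 645.0 in the knockout replicates. The lowest knockout value was above the highest wildtype value. The mean went from 365.3 ± 37.7 (SD, n = 4) to 659.0 ± 78.0 (SD, n = 4), a log2FC of 0.85 ± 0.13 (SE; DESeq2, adjusted p = 3.16e-09). Without knockout replicate 3, the highest library, it was 0.78 (DESeq2, adjusted p = 1.34e-08). Elac2 overlaps Arhgap44 on the opposite strand by 31 exonic bases at the gene ends. Arhgap44, which encodes a GTPase-activating protein, also rose, by a log2FC of 0.83 (DESeq2, adjusted p = 2.97e-05), and reads were counted by strand.

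Trmt10c, the methyltransferase subunit of RNase P, lies at chr16:56032609-56037819 (minus strand). It was measured at 295.5, 297.2, 322.0 and 310.3 normalised counts in the wildtype replicates and at 455.3, 339.6, 400.0 and 351.7 in the knockout replicates. The 2 groups did not overlap, although the gap between 322.0 and 339.6 was small beside the knockout spread. The log2FC was 0.33 ± 0.13 (SE; DESeq2, adjusted p = 0.0369). This call was close to the threshold: it was lost in edgeR (0.31, adjusted p = 0.0523) and when any of 6 libraries (each wildtype replicate and knockout replicates 1 and 3) was left out, where it ranged from 0.25 to 0.36 with an adjusted p in DESeq2 of 0.0651 (without wildtype replicate 3) to 0.134 (without knockout replicate 1), and of 0.0690 without knockout replicate 3. A small nucleolar RNA, Gm22422, sits in an intron of Trmt10c on the same strand and had a log2FC of -0.13 (DESeq2, adjusted p = 0.666).

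Hsd17b10, a short-chain dehydrogenase that also serves as a subunit of RNase P, lies at chrX:152001845-152004442 (plus strand). Its normalised counts were 1086, 1162, 1040 and 1136 in the wildtype and 960.3, 902.6, 1308 and 994.1 in the knockout. Knockout replicates 1, 2 and 4 lay below every wildtype value while knockout replicate 3 lay above them all. The log2FC was -0.09 with a 95% interval from -0.35 to 0.18 (DESeq2, adjusted p = 0.670), but -0.22 once knockout replicate 3 was left out (DESeq2, adjusted p = 0.0474). It was -0.049 without knockout replicate 1 and -0.022 without knockout replicate 2, and its call also turned on the scaling. The nuclease subunit Prorp was measured at 124.9 ± 11.4 normalised counts in the wildtype and 141.2 ± 17.6 in the knockout (SD, n = 4 each), a log2FC of 0.18 (DESeq2, adjusted p = 0.457). Of the 3 subunit genes of RNase P, only Trmt10c passed the test.

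The balance of these enzymes was also compared within each library on deposited TPM, a level per transcript length with a constant sum in every library, so that a ratio of 2 genes needs no scaling between libraries. The log2 ratio of Trmt10c to Hsd17b10 was -3.71, -3.80, -3.53 and -3.70 in the wildtype replicates and -2.91, -3.25, -3.54 and -3.33 in the knockout replicates. Knockout replicate 3 fell inside the wildtype range and the other 3 lay above it. The difference of the means was 0.43, from -3.69 ± 0.12 to -3.26 ± 0.26 (SD, n = 4; exact permutation test over 70 assignments, two-sided p = 0.0571), and it was 0.52 without knockout replicate 3 (exact permutation test, p = 0.0286). The log2 ratio of Elac2 to Elac1, the short form of RNase Z that acts outside mitochondria, was 1.48, 1.72, 2.21 and 1.58 in the wildtype and 3.08, 2.78, 2.45 and 2.82 in the knockout. All 4 knockout ratios were above all 4 wildtype ratios, with a difference of 1.04 (exact permutation test, two-sided p = 0.0286, the smallest that 4 against 4 allows). This ratio holds the rise of Elac2 already given and is not separate evidence of it. Adjusted over these 2 ratios, both had an exact permutation p of 0.0571. Elac1 itself had a log2FC of -0.16 (DESeq2, adjusted p = 0.607).

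Ptcd1, a pentatricopeptide repeat protein linked to the maturation of leucine tRNAs and the large rRNA, lies at chr5:145147514-145167108 (minus strand). It gave 364.6, 375.0, 385.7 and 353.9 normalised counts in the wildtype replicates, a narrow range, and 356.3, 521.2, 560.9 and 298.5 in the knockout replicates. Knockout replicates 2 and 3 were above the wildtype range, knockout replicate 4 was below it, and knockout replicate 1 was inside it. The SD was 13.7 in the wildtype and 127 in the knockout, and the log2FC of 0.23 had a 95% interval from -0.17 to 0.63 (DESeq2, adjusted p = 0.415). Single libraries moved it, to 0.078 without knockout replicate 3, 0.13 without knockout replicate 2 and 0.37 without knockout replicate 4. Ptcd1 shares 244 exonic bases with Bud31, a splicing factor gene on the opposite strand, which rose by a log2FC of 0.58 (DESeq2, adjusted p = 8.55e-05). Cpsf4, which starts head to head with Ptcd1 at a distance of 105 bases, had a log2FC of 0.05 (DESeq2, adjusted p = 0.862).

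Fastk, the founding member of the family, has a mitochondrial form that is needed for the mt-Nd6 mRNA. The gene lies at chr5:24438440-24445287 (minus strand). Its normalised counts were 2521, 2701, 2773 and 2850 in the wildtype replicates and 2103, 1768, 2325 and 1817 in the knockout replicates. Every knockout library was below every wildtype library, and the knockout mean was 73.9% of the wildtype mean. The log2FC was -0.44 ± 0.11 (SE; DESeq2, adjusted p = 7.85e-04), and -0.52 without knockout replicate 3 (DESeq2, adjusted p = 5.65e-07). Its last exons overlap those of Slc4a2, an anion exchanger gene on the opposite strand, by 1141 bases, and Slc4a2 had a log2FC of 0.19 (DESeq2, adjusted p = 0.327). The small nuclear RNA record Gm22333 inside Fastk had 0 counts in every library.

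Fastkd1, which has been linked to the level of the mt-Nd3 mRNA, lies at chr2:69686815-69713516 (minus strand). It was measured at 534.6, 524.3, 449.4 and 450.9 normalised counts in the wildtype replicates and at 326.4, 234.6, 269.0 and 282.0 in the knockout replicates. The highest knockout value was well below the lowest wildtype value. The mean fell from 489.8 ± 46.0 (SD, n = 4) to 278.0 ± 37.9 (SD, n = 4), which is 56.8% of the wildtype mean, with a log2FC of -0.82 ± 0.14 (SE; DESeq2, adjusted p = 8.55e-08). Leaving out each library in turn gave -0.90 to -0.74, always past the threshold.

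Fastkd5, which releases mRNAs at junctions that carry no tRNA, lies at chr2:130613840-130630027 (minus strand). Its normalised counts were 196.6, 188.5, 181.8 and 191.8 in the wildtype and 198.1, 215.1, 300.9 and 252.4 in the knockout. The groups were apart by less than 2 counts. The log2FC of 0.35 ± 0.16 (SE) did not pass the test (DESeq2, adjusted p = 0.0858), was 0.44 without knockout replicate 1 (DESeq2, adjusted p = 0.0287) and 0.23 without knockout replicate 3 (DESeq2, adjusted p = 0.249). Fastkd5 lies wholly inside Ubox5 on the same strand and shares 1966 exonic bases with it, so the division of reads between the 2 genes is uncertain. Ubox5, which encodes a ubiquitin ligase, had a log2FC of 0.11 (DESeq2, adjusted p = 0.705).

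Fastkd2, needed for the large mitochondrial rRNA, lies at chr1:63730614-63754655 (plus strand). It was measured at 505.2, 528.4, 623.7 and 594.2 normalised counts in the wildtype and 432.5, 500.2, 505.5 and 487.4 in the knockout. Only knockout replicate 3 reached into the wildtype range, by less than 1 count. The log2FC was -0.23 with a 95% interval from -0.46 to 0.0043 (DESeq2, adjusted p = 0.129), and with no correction for transcript length it was 0.032 (DESeq2, adjusted p = 0.827), which turned the direction. Mdh1b, whose start lies 296 bases from that of Fastkd2 on the other strand, had 0 counts in every library.

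Fastkd3 and Tbrg4 did not pass the test with DESeq2 size factors. Fastkd3, linked to the level and translation of several mitochondrial mRNAs, lies at chr13:68582234-68592338 (plus strand) and had 85.2 to 123 normalised counts in the wildtype and 83.0 to 98.2 in the knockout, ranges that overlap. Its log2FC was -0.20 with a 95% interval from -0.58 to 0.18 (DESeq2, adjusted p = 0.476), and it was -0.085 without wildtype replicate 3. Mtrr, which starts head to head with it at 85 bases, had a log2FC of -0.0059 (DESeq2, adjusted p = 0.982), and the antisense record Gm48556 that overlaps Fastkd3 was not analysed here. Tbrg4, also called FASTKD4, stabilises a group of mitochondrial mRNAs and lies at chr11:6615598-6626067 (minus strand). Its counts were 765.5, 804.7, 778.4 and 802.8 in the wildtype and 830.1, 761.2, 904.6 and 760.7 in the knockout. The knockout values lay on both sides of the wildtype range, and the log2FC was 0.05 with a 95% interval from -0.14 to 0.24 (DESeq2, adjusted p = 0.763). It was -0.0085 without knockout replicate 3 (DESeq2, adjusted p = 0.957). Of the small nucleolar RNAs inside Tbrg4, Snora5c, with 127 shared exonic bases, had a log2FC of 0.19 (DESeq2, adjusted p = 0.802), and Gm24313 had a mean of 1.82 normalised counts in the wildtype and 0 in the knockout.

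**Figure D2:**
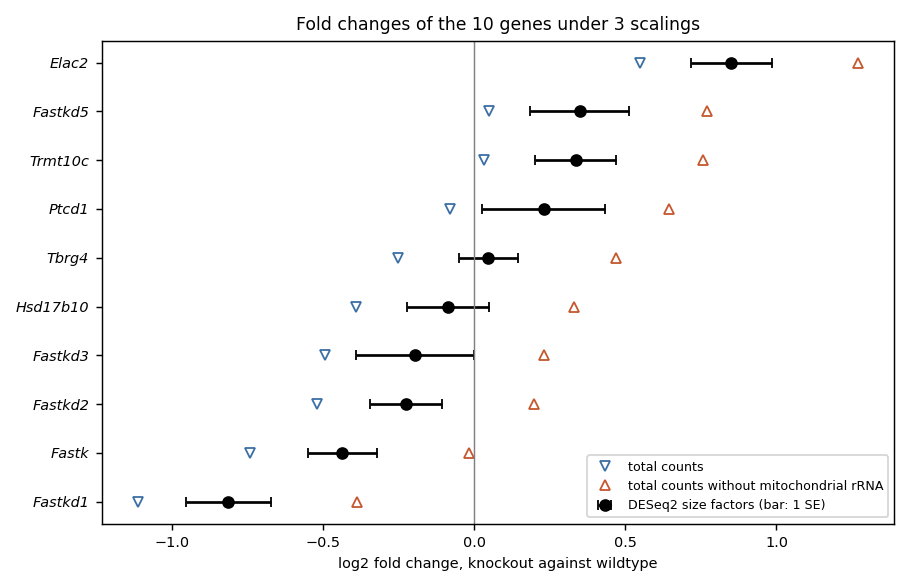
Log2 fold change (log2FC) of each gene in knockout against wildtype, with DESeq2 size factors (black, bar 1 SE, 4 libraries a group) and with the libraries scaled by total counts, including (blue) or leaving out (orange) mitochondrial rRNA. The order from Elac2 at 0.85 to Fastkd1 at -0.82 is the same under the 3 scalings, while the whole set shifts. A scaling moves all genes by nearly the same amount, so it could hardly change the order.

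The values also depend on how the libraries are scaled. The median log2FC of 15754 genes was 0.02 with DESeq2 size factors, -0.28 with total counts and 0.44 with totals from which mitochondrial rRNA was removed. Elac2 was called higher under all 3 scalings, with log2FCs of 0.85, 0.55 and 1.27, and Fastkd1 was called lower under all 3, at -0.82, -1.11 and -0.39. Fastk was at -0.74 with total counts and at -0.02 without mitochondrial rRNA (DESeq2, adjusted p = 0.898), where its call was lost. Trmt10c was at 0.03 with total counts (DESeq2, adjusted p = 0.855), where its call was lost, and at 0.76 without mitochondrial rRNA. Hsd17b10 and Tbrg4 were called in opposite directions by the 2 kinds of total. Hsd17b10 was lower at -0.39 with total counts (DESeq2, adjusted p = 0.00256) and higher at 0.33 without mitochondrial rRNA (DESeq2, adjusted p = 0.00828). Tbrg4 was lower at -0.25 (DESeq2, adjusted p = 0.00567) and higher at 0.47 (DESeq2, adjusted p = 1.26e-08). Fastkd5 went from 0.049 to 0.77 and Ptcd1 from -0.079 to 0.64, and of the 3 scalings both were called, as higher, in the one without mitochondrial rRNA, while Fastkd2 at -0.52 and Fastkd3 at -0.49 were called, as lower, in the one by total counts. Relative to the median gene under each of these scalings and the other fits of all 8 libraries, Elac2 stayed between 0.83 and 0.85, Trmt10c between 0.31 and 0.32, Fastkd5 between 0.31 and 0.33, Fastk between -0.46 and -0.40 and Fastkd1 between -0.84 and -0.82, while Tbrg4 ranged from 0.02 to 0.16 and Fastkd2 from -0.25 to 0.02, which turned its sign. Taking the median gene as the reference removes by construction any factor that a scaling applies to all genes alike.

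The promoter sequences of Elac2 and Trmt10c are shown because both genes rose, and that of Fastk as a gene that fell, so that they can be read side by side. Each run is the 250 bases before the RefSeq start (GRCm38.p6), written 5′ to 3′ on the strand of the gene, and capitals mark every match to the searched letters, or to their reverse complement, listed after the sequences. The run of Elac2 is chr11:64978785-64979034 (plus strand), that of Trmt10c chr16:56037787-56038036 (minus strand) and that of Fastk chr5:24445236-24445485 (minus strand).
Elac2: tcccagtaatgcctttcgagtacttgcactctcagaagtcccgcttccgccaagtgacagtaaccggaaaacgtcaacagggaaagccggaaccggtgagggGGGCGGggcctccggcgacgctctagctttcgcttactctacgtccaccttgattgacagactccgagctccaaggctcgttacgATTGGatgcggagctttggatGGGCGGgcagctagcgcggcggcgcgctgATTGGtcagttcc
Trmt10c: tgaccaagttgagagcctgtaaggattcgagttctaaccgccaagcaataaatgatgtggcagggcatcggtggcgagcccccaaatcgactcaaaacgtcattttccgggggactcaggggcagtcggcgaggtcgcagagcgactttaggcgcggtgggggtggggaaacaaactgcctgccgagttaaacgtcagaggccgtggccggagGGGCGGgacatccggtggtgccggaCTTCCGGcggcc
Fastk: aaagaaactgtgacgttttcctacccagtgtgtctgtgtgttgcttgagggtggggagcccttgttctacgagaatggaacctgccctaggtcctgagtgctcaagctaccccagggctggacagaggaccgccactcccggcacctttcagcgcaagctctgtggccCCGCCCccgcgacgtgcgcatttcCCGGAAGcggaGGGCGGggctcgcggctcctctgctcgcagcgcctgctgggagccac
The letters searched, on both strands, were CCGGAAG (bound by ETS factors such as NRF2), GCATGCGC (NRF1), TGACGTCA (the cyclic AMP element), TGATGCAA (the amino acid response element of ATF4), CACGTG (the E-box), TCAAGGTCA (estrogen-related receptors), CCAAT and GGGCGG (Sp factors). They were chosen after the expression values were known. The ETS letters stood in 4 of the 10 genes, Fastk, Tbrg4, Fastkd5 and Trmt10c, against 6.91% of 32851 RefSeq promoters of the same length. In Trmt10c they began 12 bases before the start and in Fastk 58 bases before it. CCAAT stood in 4 of 10 (33.8% of all promoters), with 2 copies in Elac2, and the Sp letters in 8 of 10 (32.7%), the window of Fastkd1 among them. The GC content of the 10 windows ran from 38.0% to 71.6%, and 7 of them lay above the median of 52.4% over all promoters, and the shares were not matched for it. The other 5 motifs, held by 2.26% (NRF1), 1.55% (cyclic AMP element), 0.791% (amino acid response element), 6.02% (E-box) and 0.387% (estrogen-related receptor) of all promoters, had no match in the 10, which says only that these letters are not in these windows. The ETS letters were in genes that rose, fell and did not pass the test alike. The RefSeq start lies inside the gene span that GENCODE gives by 33 bases in Trmt10c, by 52 in Fastk and by 910 in Fastkd1, whose window falls wholly inside the gene and is not shown.

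Levels can be compared between genes on TPM. In the wildtype, Fastk at 46.3 ± 1.73 TPM (SD, n = 4) and Hsd17b10 at 38.3 ± 1.79 were the most abundant, followed by Tbrg4 at 14.4 ± 0.278, Fastkd2 at 6.68 ± 0.596 and Fastkd1 at 5.19 ± 0.567. Elac2 at 3.66 ± 0.404 and Ptcd1 at 3.64 ± 0.181 could not be ordered, since their ranges overlapped, and Trmt10c at 2.98 ± 0.109, Fastkd5 at 1.94 ± 0.0759 and Fastkd3 at 1.27 ± 0.215 came last. Apart from the pair Elac2 and Ptcd1, the wildtype ranges of neighbours in this order did not overlap. In the knockout Fastk at 28.5 to 33.5 TPM and Hsd17b10 at 29.2 to 38.2 changed places in some libraries, Elac2 at 5.99 ± 0.493 ranked 4 or 5 of 10 instead of 6 or 7, and Fastkd1 at 2.68 ± 0.360 ranked 7 to 9 instead of 5. TPM is a share of the whole library, rRNA included, so TPM of 1 gene is not compared between groups here.

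**Figure D3:**
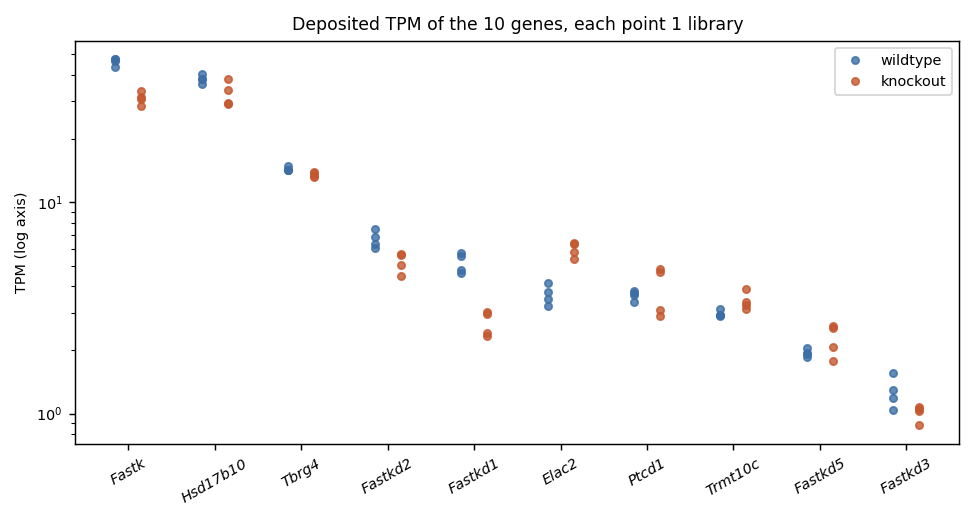
Deposited TPM (vertical log axis) of the 10 genes in order of their wildtype mean, with each point 1 of 4 wildtype (blue) or 4 knockout (orange) libraries. Within the wildtype, neighbouring genes are apart except Elac2 and Ptcd1, and in the knockout Elac2 stands beside Fastkd2 while Fastkd1 lies among the lowest genes.

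The make-up of the FASTK family within each library was read from the same TPM. Fastk took 61.1% ± 1.01 (SD, n = 4) of the summed TPM of the 6 genes in the wildtype and 55.7% ± 1.81 in the knockout. Fastkd1 took 6.86% ± 0.875 and 4.82% ± 0.644. The share of Tbrg4 was 18.4% to 19.4% in the wildtype and 23.9% to 24.9% in the knockout, and that of Fastkd5 was 2.40% to 2.79% and 3.21% to 4.48%. Fastkd2 (8.81% and 9.39%) and Fastkd3 (1.68% and 1.82%) overlapped between the groups. Shares of 1 sum depend on each other, so these are given as a description with no test.

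RSEM also gives each gene a length that is weighted by the estimated use of its transcripts and does not depend on the gene's level. Tbrg4 was the 1 of the 8 genes with a length that varies whose lengths did not overlap between the groups, where 8.62% of 11196 genes with a varying length and a mean of 10 or more did so. Its weighted length was 1662, 1598, 1639 and 1545 bases in the wildtype replicates and 1741, 1721, 1742 and 1782 in the knockout replicates. Every knockout library had a longer estimate, with 12 transcripts of Tbrg4 in the table, 4 of them coding with lengths of 540 to 2347 bases and 3 with a retained intron. The weighted length of Fastkd2 was 2460, 2498, 2069 and 2183 bases in the wildtype and 2816, 2484, 2746 and 2770 in the knockout. Knockout replicate 2 fell inside the wildtype range and the other 3 above it. Fastkd2 has 6 transcripts in the table, of which only 1, of 4486 bases, is coding, and the rest are 327 to 2613 bases long. Fastk and Fastkd1 overlapped in length between the groups, Elac2 lay between 2901 and 2958 bases in all 8 libraries, and Fastkd3 and Trmt10c have 1 transcript each. Ptcd1 was at 3087 bases in 5 libraries and at 2769, 2767 and 2797 in wildtype replicate 3 and knockout replicates 2 and 3. These libraries also held its highest wildtype count and its 2 highest knockout counts. A normalised count is corrected for transcript length, so a shorter length raises it by itself. With no length offset the log2FC of Ptcd1 was 0.18. Transcript shares are estimates from short reads, and these lengths were not tested.

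**Figure D4:**
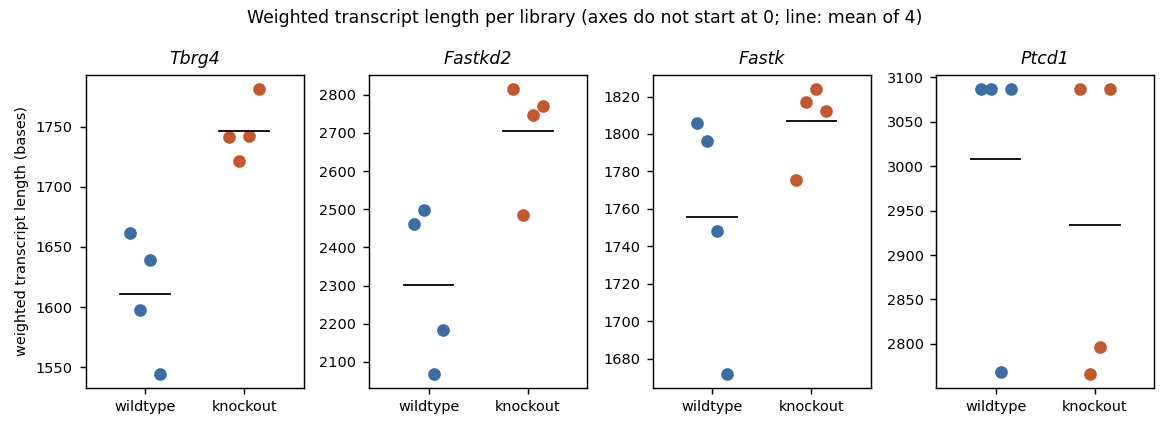
Weighted transcript length in bases (vertical axes, which do not start at 0) of Tbrg4, Fastkd2, Fastk and Ptcd1 in each wildtype (blue) and knockout (orange) library, with a line for the mean of 4. All 4 knockout libraries are above all 4 wildtype libraries in Tbrg4 alone, and in Fastkd2 knockout replicate 2 lies among the wildtype libraries.

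Other factors that act on the same RNAs were counted from lists given by function. Of 13 genes for further processing, tailing and decay, 5 were higher, 0 were lower and 8 did not pass the test. The share called was 38.5%, near the 33.7% called over all genes tested (18.2% higher and 15.5% lower). The count called is by itself no result about this list. Its median log2FC was 0.18 against 0.01 over all genes tested. Trnt1, which adds CCA to tRNAs after Elac2 has cut them, went from 354.1 ± 29.3 to 866.7 ± 213.7 normalised counts (SD, n = 4), a log2FC of 1.29 (DESeq2, adjusted p = 9.93e-12). Rexo2, which degrades short RNA fragments, went from 428.1 ± 17.3 to 788.8 ± 65.0 (SD, n = 4), a log2FC of 0.88 (DESeq2, adjusted p = 1.07e-15). In both genes the groups did not overlap. Lactb2, a mitochondrial endoribonuclease, had a log2FC of 0.70 (DESeq2, adjusted p = 0.00836) with groups that overlapped. Slirp, the partner of Lrpprc, was at 0.02 (DESeq2, adjusted p = 0.952).

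Of 12 genes for the modification of mitochondrial tRNAs, 3 were higher and 3 lower, and the median was 0.02. Trit1, which adds an isopentenyl group next to the anticodon, rose by a log2FC of 1.22 (DESeq2, adjusted p = 1.14e-11), while Osgepl1, of the threonylcarbamoyl pathway, was at -1.16 (DESeq2, adjusted p = 4.25e-23) and Trmt5, a guanosine methyltransferase, at -0.81 (DESeq2, adjusted p = 7.73e-06). The groups did not overlap in any of these 3 genes. Of the 5 genes of the pseudouridine module that acts on the large rRNA, Trub2, a pseudouridine synthase, passed the test at 0.51 (DESeq2, adjusted p = 0.0165), with overlapping groups, and Ngrn (0.28), Rpusd3 (0.19), Rcc1l (-0.15) and Rpusd4 (-0.17) did not. The call on Trub2 was lost without wildtype replicate 4 or without knockout replicate 2, when 0 of the 5 passed. Of 13 relatives that act outside mitochondria, 4 were higher and 0 lower, with a median of 0.34. When any 1 library other than knockout replicate 4 was left out, 3 were called. Among them Pop4 at 1.02 (DESeq2, adjusted p = 1.53e-10), Rpp38 at 1.002 (DESeq2, adjusted p = 3.42e-04) and Rpp14 at 0.69 (DESeq2, adjusted p = 4.85e-06) encode protein subunits of the nuclear RNase P. Over all genes tested, 18.2% were higher, 15.5% were lower and 33.7% were called in either direction, and no list was tested against them.

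**Figure D5:**
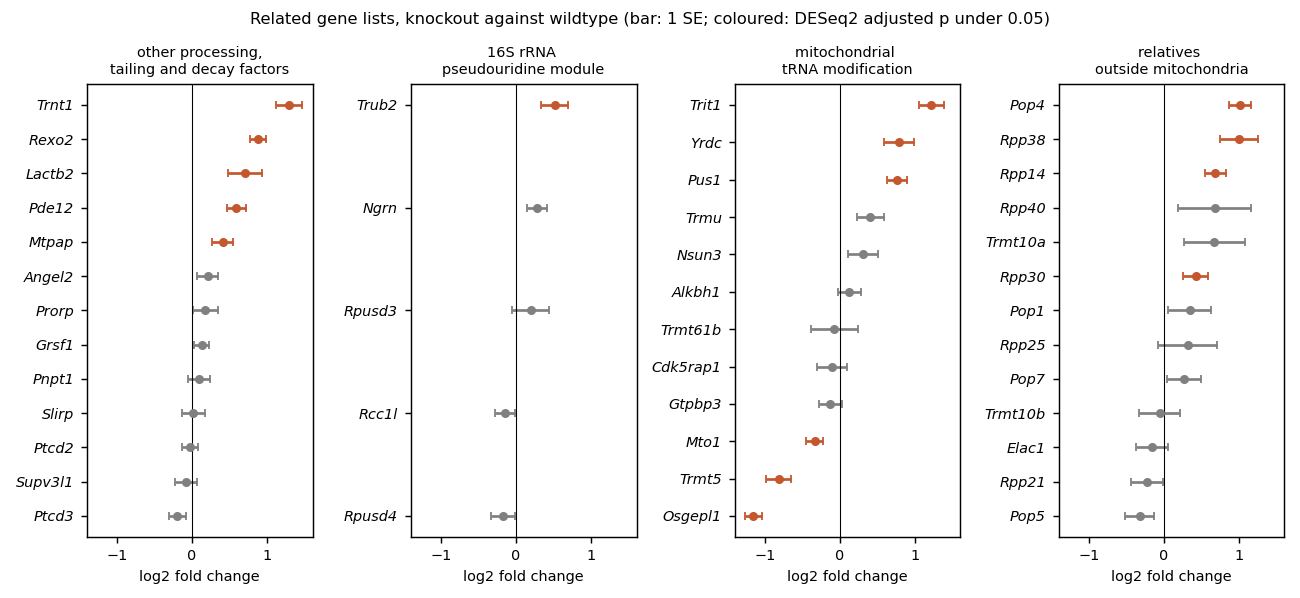
Log2 fold change (log2FC) of each gene in the 4 related lists in knockout against wildtype (horizontal axes, bar 1 SE, 4 libraries a group), with genes past a DESeq2 adjusted p of 0.05 in orange and the others in grey. Trnt1 at 1.29 and Trit1 at 1.22 are the highest and Osgepl1 at -1.16 the lowest.

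The records of the tRNAs that RNase P and Elac2 release drew almost no reads in these libraries. So few reads do not measure how much of each tRNA the hearts held. Of 22 mitochondrial tRNA records, mt-Tm, the methionine tRNA, was the 1 with an adjusted p. It was measured at 12.7, 27.1, 20.8 and 27.4 normalised counts in the wildtype and 68.0, 45.0, 62.3 and 48.9 in the knockout. All knockout values were above the wildtype values, with a log2FC of 1.34 ± 0.32 (SE; DESeq2, adjusted p = 1.82e-04). Whether these reads came from the cut tRNA or from uncut RNA was not tested. The other 21 records had at most 2.31 normalised counts in any library, a level at which no difference was detectable.

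The genes whose pattern over the 8 libraries was most like that of Elac2, out of 10446 genes whose mean was 100 normalised counts or more, were Zyx, Rab3ip and Wdr12. Likeness was the root mean square difference of the centred log2 counts, which was 0.07 for all 3. Zyx, which encodes zyxin of focal adhesions, had a log2FC of 0.75, Rab3ip, an exchange factor for Rab proteins, of 0.84 and Wdr12, of ribosome assembly in the nucleolus, of 0.78. Those most like Fastkd1 were the record Gm44087 (0.07), Osbpl1a, an oxysterol-binding protein gene (0.07), and Mrps35, of the small subunit of the mitochondrial ribosome (0.08), with log2FCs of -0.80, -0.71 and -0.76. These genes were picked for their likeness, so the values are a description.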

How the data were processed

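Total RNA from whole hearts, depleted of cytoplasmic rRNA and primed with random hexamers, was sequenced by the authors in 8 paired-end libraries, grouped here by their titles. The authors made the deposited expected counts and TPM with RSEM 1.2.31 and Bowtie2, reverse-stranded, against GENCODE M13 with added mitochondrial sequences. RSEM divides reads shared by several genes, so expected counts need not be whole. The other deposited values by the authors used here are gene and effective lengths in bases. A table of the authors' fold changes and p-values was not used, nor were 8 columns of normalised counts whose names match no sample label.

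Expected counts were rounded and fitted in DESeq2 1.42.0 (R 4.3.3) on genotype alone, with its default size factors and an offset from the effective lengths (a length of 0 was replaced by 1). No shrinkage was applied to fold changes, and Benjamini-Hochberg adjustment ran over all genes, with a threshold of 0.05. Depth ran from 35218541 to 47743376 counts, and precision rests on 4 libraries a group. Ratios of TPM were compared by exact permutation tests, two-sided. Alternatives were edgeR 4.0.16, no length offset, at least 10 counts in 4 libraries, nuclear size factors, scaling by total counts that included or omitted mitochondrial rRNA, a replicate block and leaving out each library. The fits were run on simulated data whose spread came from the wildtype libraries alone. This does not test them where the knockout spread is wider, as it was for Ptcd1. Symbols came from GENCODE M21 (GRCm38) and matched 50339 of 50563 Ensembl identifiers, Prorp through a RefSeq synonym, and promoters from RefSeq (GRCm38.p6) for 10 of 10 genes.

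Named were the 10 genes, Lrpprc, all genes of lists of at most 5 (cell type markers, which are given as sums, apart), the 3 largest calls of each longer list, neighbours that overlap or start head to head within 1000 bases, and the 3 genes most like the largest rise and the largest fall. Elac1 entered through its ratio with Elac2, and Prorp, Slirp, Plin1, Myh6, Actn2 and Tnnt2 were named after their values were seen. The members and lists were chosen with earlier results of these data known.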

Additional observations from a re-analysis of the deposited data

Results flagged for a closer look

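Of 42 groups of 4 libraries checked for a library far from the others, 2 were flagged, where chance flags about 1 in 20, or 2.1. Lrpprc in knockout replicate 2 was at 504.3 normalised counts while the other knockout libraries were at 597.4 to 605.4. The weighted transcript length of Ptcd1 in wildtype replicate 3 was 2769 bases while the other wildtype libraries were all at 3087.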

How the results depend on the processing

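Elac2 and Fastkd1 kept their direction and call under all 15 alternatives, and over the 10 genes 125 of 150 alternative values kept their direction and side of the threshold. The 2 genes called higher became 1 in edgeR, with total counts and with the replicate block, 6 with totals that omitted mitochondrial rRNA, and 1 to 2 when a library was left out. The 2 called lower became 6 with total counts, 1 without mitochondrial rRNA, and 2 to 3 when a library was left out. Without mitochondrial rRNA in the total, the calls in the lists became 12 (processing, tailing and decay), 3 (pseudouridine module) and 7 (relatives outside mitochondria), Fastkd2 was at 0.20, Fastkd3 at 0.23 and Hsd17b10 at 0.33, all with the direction turned. With total counts the pseudouridine module had 2 calls, and Tbrg4 at -0.25 and Ptcd1 at -0.079 turned direction. With no length offset Fastkd2 was at 0.032. Tbrg4 ranged from -0.0085 (without knockout replicate 3) to 0.080 when a library was left out. Over the left-out libraries, calls ranged from 0 to 1 in the pseudouridine module and from 3 to 4 in the relatives, and genes apart in length from 1 to 2 (2 without wildtype replicate 2, knockout replicate 1 or knockout replicate 2). The Elac2 to Elac1 ratio ranged from 0.94 to 1.19 when a library was left out, with an exact permutation p of up to 0.0571, and had p = 0.125 with the replicate block (1.04, sign flips of 4 pairs, the smallest p possible). The Trmt10c to Hsd17b10 ratio ranged from 0.31 to 0.52. The causes of these shifts were not tested. Over all genes, 6269 were called in edgeR, 7836 with total counts (1924 higher, 5912 lower), 9061 without mitochondrial rRNA (7950 higher, 1111 lower) and 5525 with the block. Same-numbered libraries did not deviate together (correlations of -0.07 to 0.07, with 1 of 4 knockout libraries closest to its own number), so the numbers were not taken as pairs, and among the 10 genes the block changed the call on Trmt10c alone (0.33, DESeq2, adjusted p = 0.129).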
